A study of Mus musculus with 8 samples.

Results

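The EGF receptor family and its ligands were described in the liver of Brap LKO mice, in which an Albumin-Cre transgene deletes the floxed Brap gene. The genes were chosen by symbol, with earlier results of these data known. They were the 4 receptors Egfr, Erbb2, Erbb3 and Erbb4, and the 6 ligands Egf, Areg, Ereg, Hbegf, Btc and Tgfa. All 10 were among the 24451 genes of the normalized count table, and 9 averaged 5 normalized counts or more and could be tested (Areg did not). Single-end reads of 50 bases were obtained from left-lobe RNA of 4 Brap LKO mice (Brap fl/fl with Alb Cre) and 4 Brap F/F control mice (Brap fl/fl without Cre). All 8 mice were C57BL/6, 18 wk old and fasted for 6 h, and both groups carry the floxed alleles. The controls carry no Cre, so an effect of the transgene itself cannot be told apart from that of the deletion. Albumin-Cre acts in cells that express albumin, chiefly hepatocytes. Whether Brap is intact in the other cells of a Brap LKO liver was not measured.

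The 4 receptors are membrane tyrosine kinases that signal as pairs. EGFR binds EGF, amphiregulin (Areg), epiregulin (Ereg), heparin-binding EGF (Hbegf), betacellulin (Btc) and TGF-alpha (Tgfa), whereas ERBB3 and ERBB4 bind neuregulins and ERBB2 has no known ligand of its own and serves as a partner. The ligands are made as membrane precursors that ADAM proteases release, and the receptors feed into the Ras and ERK cascade, in which Brap (also called Imp) is known as a modulator. EGFR is abundant on hepatocytes and is best known there for the response to partial hepatectomy. Areg is a known target of YAP, the effector of the Hippo pathway, which acts through TEAD factors at DNA.

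The libraries held 26280884 to 33313914 gene reads each. The whole-gene normalized count of Brap averaged 3988 ± 242 (SD, n = 4) with the deletion and 4186 ± 179 (SD, n = 4) without it. This count also takes in exons outside the floxed part and therefore does not check the genotype labels. The hepatocyte markers (8 of 8 tested) summed to between 2380801 and 3177053 normalized counts per Brap LKO liver and between 2850897 and 4242295 per Brap F/F liver. Brap F/F 2 and 3 stood apart from the other 6 livers on the first principal component, which held 49.1% of the variance (30.8 and 31.1, against -22.3 to -1.71). In the same livers the sum of 10 male-biased liver genes was 77954 and 63768, against 104845 to 143486 in the other 6. Both livers were below the other 6 for 5 of these genes and above them for 1. Of the 9 female-biased genes in the table, both were above the other 6 for 4 and below them for 1. Cyp2b9, 1 of these 4, was at 831 and 2406 against at most 84.4. The labels give no sex, whereas the study's methods name male mice for its experiments and both sexes for pilot work. Both livers together were below the other 6 for 11.8% of the 15352 genes tested and above them for 14.4%, so each result was also computed without them, a choice made after seeing the data.

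None of the 9 members tested passed an adjusted p of 0.05 between Brap LKO and Brap F/F livers (limma on log2(normalized count + 1), Benjamini-Hochberg over all 15352 genes). Among all genes 0.664% passed as higher and 0.104% as lower, or 0.769% in both directions. At an unadjusted p under 0.05, 3 of the 9 members were higher (Btc, Ereg and Egfr) and 0 were lower, beside 9.23% of all genes higher and 6.59% lower. On the recovered reads, edgeR called 0 members (2 at an unadjusted p under 0.05) beside 0.795% of all genes (15.6% unadjusted). DESeq2 called 1, Btc (3 unadjusted), beside 4.15% of all genes with an adjusted p (15.9% unadjusted). The log2 fold change was above 0 for 9 of 9 members, with a median of 0.25, against 48% and -0.01 for all genes, but that of Erbb4 was below 0 with edgeR and DESeq2. Without Brap F/F 2 and 3 it was above 0 for 7 of 9 members, again with 0 past the adjusted threshold, where 1.11% of all genes passed, and with 3 members (Btc, Erbb2 and Erbb4) at an unadjusted p under 0.05, beside 16.8% of all genes. In bulk liver RNA, fewer cells of a type and less RNA per cell cannot be told apart.

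**Figure D1:**
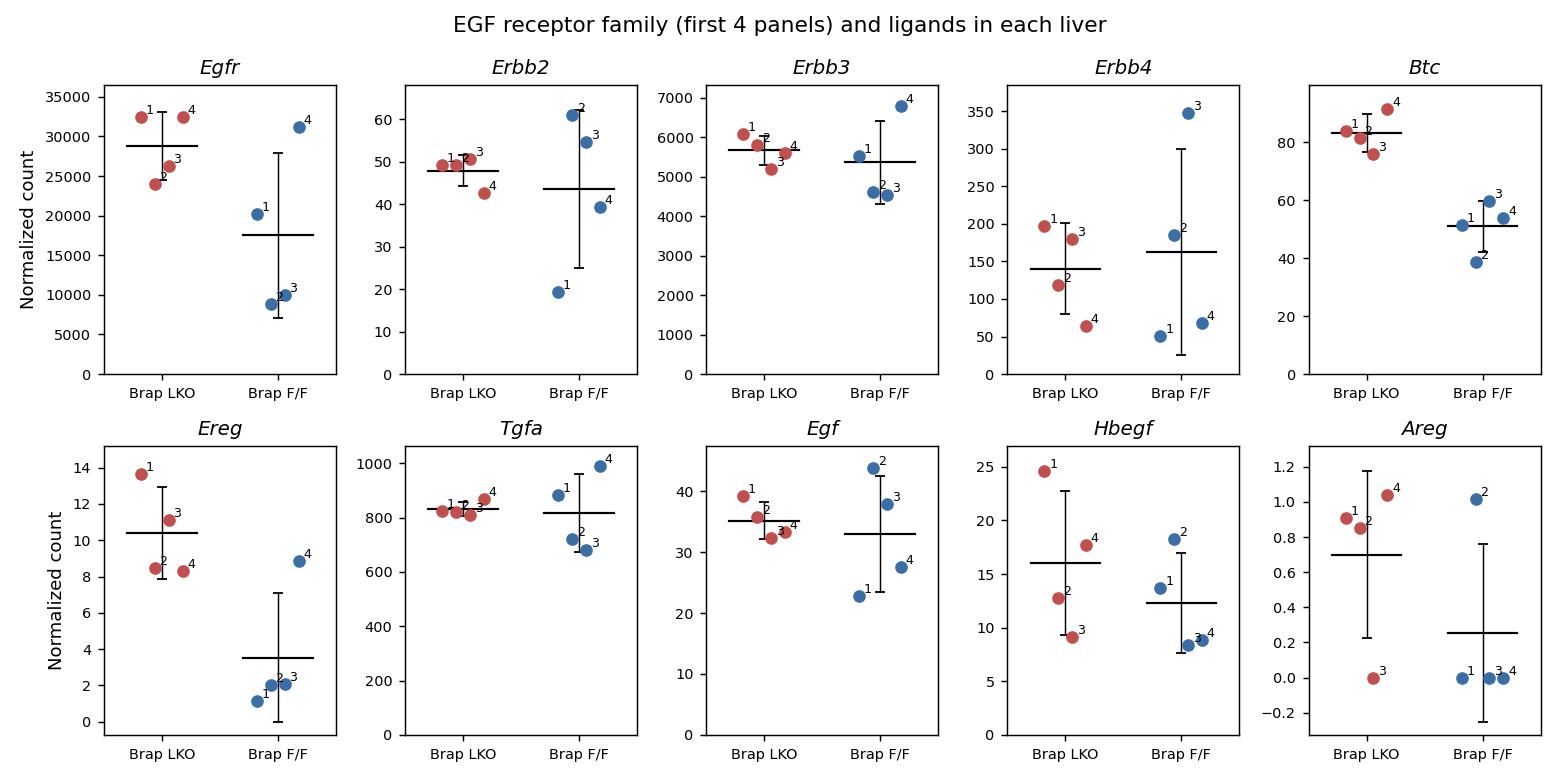
Normalized counts (linear axis) of the 10 genes in each liver, with the replicate number beside each point (red, Brap LKO; blue, Brap F/F); horizontal lines are group means and bars are SD (n = 4). The Btc points of the groups do not overlap, and for Egfr the Brap F/F livers 2 and 3 sit far below the rest.

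The base sequences ahead of 3 of these genes are shown as context: Egfr is the most abundant member, Btc the member whose groups were apart, and Erbb2 the member with a match to the TEAD core. RefSeq entries (GRCm38.p6) were found for 7 of the 10 members, and the bases up to the annotated start are printed 5′ to 3′ on the gene's strand. Capitals mark the TEAD core GGAATG, searched on both strands.
Egfr, chr11:16751953-16752202, plus strand: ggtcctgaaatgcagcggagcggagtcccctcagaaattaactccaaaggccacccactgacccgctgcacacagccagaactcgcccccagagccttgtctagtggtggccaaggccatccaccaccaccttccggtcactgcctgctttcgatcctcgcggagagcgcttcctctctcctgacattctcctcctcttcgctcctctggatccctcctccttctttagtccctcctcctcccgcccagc
Btc, chr5:91402995-91403244, minus strand: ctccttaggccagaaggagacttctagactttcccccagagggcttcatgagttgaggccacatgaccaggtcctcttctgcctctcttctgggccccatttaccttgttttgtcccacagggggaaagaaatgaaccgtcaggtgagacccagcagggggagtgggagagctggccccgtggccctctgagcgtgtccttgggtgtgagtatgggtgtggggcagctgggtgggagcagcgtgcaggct
Erbb2, chr11:98412234-98412469, plus strand: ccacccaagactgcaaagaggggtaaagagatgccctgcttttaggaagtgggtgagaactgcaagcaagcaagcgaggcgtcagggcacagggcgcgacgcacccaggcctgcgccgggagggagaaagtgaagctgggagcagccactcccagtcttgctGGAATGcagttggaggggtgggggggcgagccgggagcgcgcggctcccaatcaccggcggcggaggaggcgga
The Erbb2 match lay 88 bases before the RefSeq start and was the only one in the 8 entries of the 7 members. The same letters were found in 12.6% of the 32851 promoters of 250 bases, a share near that of the members. The STAT core TTCNNNGAA, on both strands, was in none of the 8 entries, beside 7.02% of the same promoters. These matches describe letters in a window and carry no measurement of binding.

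Compared per kb of exon, the levels of the 10 genes spanned more than 3 orders of magnitude in these livers. The length used was the union of the exons of all annotated transcripts, which can exceed that of the transcripts present. Egfr was highest with a mean of 2045 normalized counts per kb over the 8 livers, followed by Erbb3 at 917 and Tgfa at 127. Egfr exceeded Erbb3 in 8 of 8 livers, although their ranges overlapped (778 to 2866 and 755 to 1128). Erbb3, Tgfa and Btc did not overlap with each other.
Btc (14.8), Erbb4 (12.3) and Erbb2 (8.78) followed with overlapping ranges, each exceeding the next in 6, 6 and 8 of 8 livers (Erbb2 against Egf). Egf (3.02) and Hbegf (2.93) could not be ordered, with Egf higher in 5 of 8 livers. Ereg (1.69) and Areg (0.393) were lowest, and both rest on few reads.

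**Figure D2:**
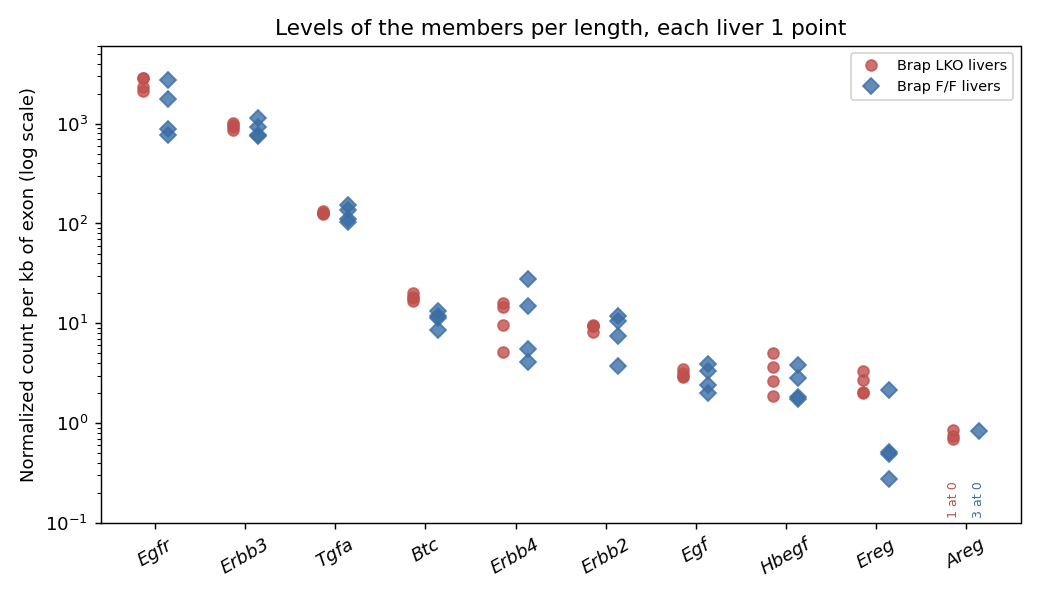
Normalized count per kb of exon on a log axis for the 10 genes in descending order of their mean, with 1 point per liver (circles, Brap LKO; diamonds, Brap F/F) and the number of livers at 0 written for Areg. Egfr, Erbb3 and Tgfa lie well above the other 7 genes, and the Brap F/F livers are the more widely spread for Egfr, Erbb4 and Ereg.

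Egfr, on chr11:16752203-16918158 (mm10, plus strand), showed the largest difference among the receptors, and this difference rested on 2 control livers. Its normalized count was 32445, 23953, 26326 and 32462 in Brap LKO 1 to 4 and 20205, 8809, 9949 and 31141 in Brap F/F 1 to 4. Brap F/F 2 and 3 lay far below every other liver, whereas Brap F/F 4 lay within the Brap LKO range. The means were 28796 ± 4333 (SD, n = 4) and 17526 ± 10424 (SD, n = 4). The log2 fold change was 0.90 ± 0.36 (SE, 95% confidence interval 0.08 to 1.71, limma p = 0.0341, adjusted p = 0.281, two-sided exact permutation p = 0.0857). Without Brap F/F 2 and 3 it was 0.19 (-0.26 to 0.64, adjusted p = 0.68). The same control livers were both lowest for 5 of the 10 male-biased genes, among them Selenbp2 (896 and 548, against 15392 or more in the others). Both were highest for 1 of the 10. The part of sex-biased expression in the Egfr difference was not tested.

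Erbb3, the kinase-impaired receptor for neuregulins (chr10:128567523-128589652, minus strand), was the second most abundant receptor and varied little. It measured 6071, 5810, 5204 and 5594 normalized counts in Brap LKO 1 to 4 and 5533, 4610, 4539 and 6788 in Brap F/F 1 to 4. The Brap LKO values lay inside the Brap F/F range. Its log2 fold change was 0.10 (-0.19 to 0.38, adjusted p = 0.732), and it was -0.11 without Brap F/F 2 and 3.

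Erbb2, the ligandless partner receptor (chr11:98412470-98437716, plus strand), was low in every liver. Its normalized count was 49.2, 49.3, 50.6 and 42.6 in Brap LKO 1 to 4 and 19.4, 61.0, 54.7 and 39.2 in Brap F/F 1 to 4. The control values were on both sides of the Brap LKO values, with Brap F/F 1 lowest and Brap F/F 2 and 3 highest of the 8 livers. Between the groups the log2 fold change was 0.25 (-0.47 to 0.97, adjusted p = 0.725). It became 0.77 (0.11 to 1.43, adjusted p = 0.228) without Brap F/F 2 and 3, and -0.09 without Brap F/F 1, so its direction rested on single libraries.

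Erbb4, the neuregulin receptor best known from heart and brain (chr1:68032186-69108059, minus strand), varied most within groups among the receptors. It measured 198, 119, 180 and 64.5 normalized counts in Brap LKO 1 to 4 and 50.2, 185, 347 and 67.7 in Brap F/F 1 to 4. Low and high livers occurred in both groups, and the highest value of all was that of Brap F/F 3. Its log2 fold change of 0.08 had a wide interval (-1.26 to 1.42, adjusted p = 0.96). The estimate was 1.13 (0.19 to 2.07, adjusted p = 0.218) without Brap F/F 2 and 3.

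The balance of the receptors within a liver does not depend on the size factor. Per kb, Egfr made up 73.5%, 68.2%, 72.3% and 75.2% of the 4 receptors in Brap LKO 1 to 4, and 65.8%, 49.5%, 52.6% and 70.7% in Brap F/F 1 to 4. Nearly all of the remainder was Erbb3, at 24.4% to 31.2% in Brap LKO and 29.0% to 48.8% in Brap F/F livers. In Brap F/F 2 the 2 receptors were near parity per kb, with exon unions of 11.3 kb for Egfr and 6.02 kb for Erbb3. By normalized count Egfr was still the higher in that liver (8809 against 4610). The log2 ratio of Egfr to Erbb3 was 2.33 ± 0.21 (SD, n = 4) against 1.53 ± 0.60 (SD, n = 4), a difference of 0.80 (exact permutation p = 0.0571, adjusted over the 3 pairs p = 0.171). The Egfr to Erbb2 ratio differed by 0.65 (exact permutation p = 0.429) and the Erbb2 to Erbb3 ratio by 0.15 (exact permutation p = 0.771). None of the 3 ratios passed 0.05. Egfr was known to be higher when the ratios were chosen, so those with Egfr are not independent of that value. The Egfr to Erbb3 difference was 0.30 without Brap F/F 2 and 3, and the Egfr to Erbb2 difference turned to -0.58.

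Btc, a ligand of EGFR and ERBB4 (chr5:91357261-91402994, minus strand), was the only member whose groups did not overlap. Its normalized count was 83.8, 81.6, 75.9 and 91.5 in Brap LKO 1 to 4 and 51.3, 38.6, 59.9 and 54.0 in Brap F/F 1 to 4. Every Brap LKO liver was above every control liver, which held for 5.48% of all genes tested, while 4.39% had every Brap LKO liver lower (9.87% either way). The means were 83.2 ± 6.48 (SD, n = 4) and 51.0 ± 8.96 (SD, n = 4). On the log2 scale Btc was higher by 0.71 ± 0.16 (SE, 0.34 to 1.08). Its unadjusted limma p was 0.00163, its adjusted p 0.0876 and its exact permutation p 0.0286, the smallest that 70 arrangements can give. DESeq2 on the recovered reads gave a similar log2 fold change of 0.71 with an adjusted p of 0.0123, and edgeR gave 0.72 with an adjusted p of 0.0878. The call therefore depended on the test, whereas the size hardly moved: it was 0.65 (adjusted p = 0.106) without Brap F/F 2 and 3 and 0.59 to 0.79 when each liver was left out in turn.

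Ereg, a ligand of EGFR and ERBB4 (chr5:91074622-91093646, plus strand), had the largest fold difference and the fewest reads of the members tested. It had 15, 10, 11 and 8 reads in Brap LKO 1 to 4 and 1, 2, 2 and 9 reads in Brap F/F 1 to 4, or 13.7, 8.50, 11.1 and 8.32 against 1.14, 2.03, 2.10 and 8.83 normalized counts. A control liver, Brap F/F 4, reached the Brap LKO range and made the groups overlap, whereas the other 3 controls were at or under 3 reads. The log2 fold change was 1.58 ± 0.48 (SE, 0.50 to 2.65, limma p = 0.00871, adjusted p = 0.168, exact permutation p = 0.0857). Without Brap F/F 4 it was 2.04 with an adjusted p of 0.0352, in a fit that also called more genes over all (178 higher and 54 lower, against 102 and 16). It was 1.29 without Brap F/F 2 and 3 (-0.09 to 2.67, adjusted p = 0.33). Of its exon bases, 141 are shared with the antisense gene Gm19610, which had at most a mean of 0.960 normalized counts in either group.

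Tgfa, the ligand with the highest level (chr6:86195223-86275719, plus strand), was the steadiest member. It measured 823, 822, 809 and 871 normalized counts in Brap LKO 1 to 4 and 884, 723, 679 and 989 in Brap F/F 1 to 4. The Brap LKO values lay inside the control range, and their coefficient of variation was 3.23%, against 17.5% in the controls. Tgfa had a log2 fold change of 0.04 (-0.22 to 0.30, adjusted p = 0.893), and it was -0.17 (adjusted p = 0.354) without Brap F/F 2 and 3.

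The remaining ligands gave no difference between the groups that could be told from the spread of the livers. Egf, the founding ligand (chr3:129677565-129755316, minus strand), measured 39.2, 35.7, 32.4 and 33.3 normalized counts against 22.8, 43.7, 37.8 and 27.5. The controls lay on both sides, with a log2 fold change of 0.13 (-0.38 to 0.64, adjusted p = 0.805). Hbegf measured 24.6, 12.7, 9.11 and 17.7 against 13.7, 18.3, 8.41 and 8.83, with overlapping groups and a log2 fold change of 0.34 (-0.48 to 1.15, adjusted p = 0.673). Areg was read once in Brap LKO 1, 2 and 4 and in Brap F/F 2, and not at all in the other 4 livers. Since a count of 0 allows up to 3 reads, a difference in Areg was not detectable at this depth.

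**Figure D3:**
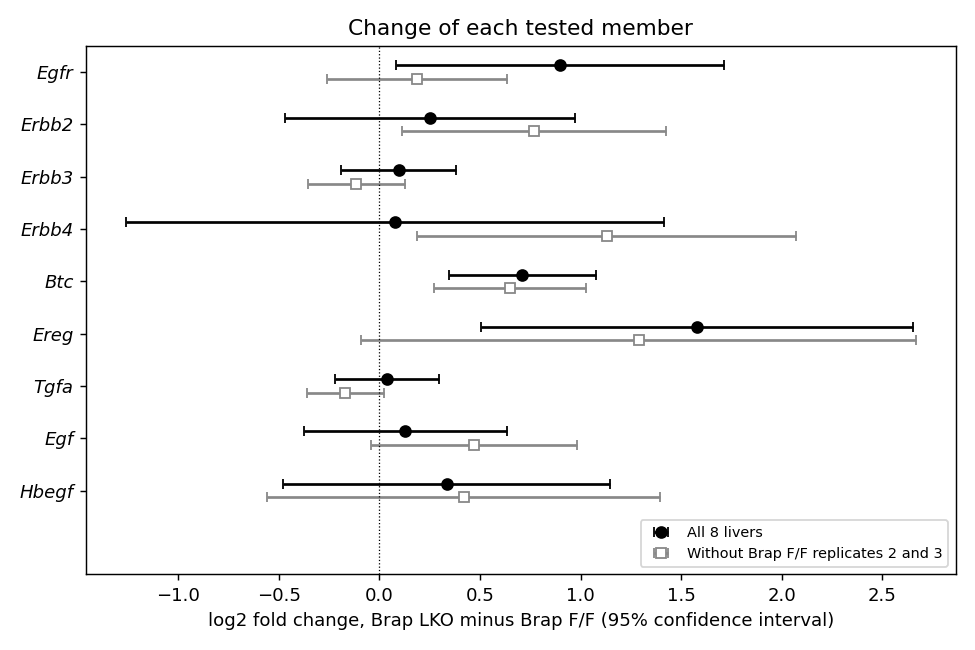
log2 fold change of the 9 members tested (Brap LKO minus Brap F/F, on the log2(normalized count + 1) scale) with its 95% confidence interval from limma, for all 8 livers (filled circles) and without Brap F/F 2 and 3 (open squares). The estimate for Btc stays near 0.7 in both, that for Egfr falls from 0.90 to 0.19, and that for Erbb4 rises from 0.08 to 1.13.

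Brap F/F 2 and 3 stood apart for members of both kinds. Egfr, Erbb3 and Tgfa were among the genes for which both of these livers lay below the other 6, and Erbb2 among those for which both lay above. Without them the groups did not overlap for 4 members (Erbb2, Egf and Btc higher in Brap LKO livers, Tgfa lower), each against only 2 controls, a split in which 26.8% of all genes did not overlap.

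Markers of other liver cells were counted in the same comparison, in which 9.23% of all genes were higher at an unadjusted p under 0.05. Of the 9 cholangiocyte markers tested, 6 were higher in Brap LKO livers at an unadjusted p under 0.05 and 1, the chloride channel gene Cftr, at the adjusted threshold, with a median log2 fold change of 0.95. The summed level of the list was 1956 to 3831 normalized counts per Brap LKO liver and 1147 to 2177 per control liver. Of the 10 stellate cell and fibroblast markers, 6 were higher at an unadjusted p under 0.05 and 1, Pdgfrb, at the adjusted threshold (median 0.71, sums of 7992 to 12517 against 5200 to 9130). For macrophages and monocytes the counts were 5 and 1 of 12 (Itgax), with sums of 7114 to 12693 against 7131 to 10019, for lymphocytes 2 and 0 of 10, with sums of 161 to 253 against 116 to 177, and for the sinusoidal endothelium 0 of 8, with sums of 7057 to 10289 against 6065 to 9073. Without Brap F/F 2 and 3, genes with an unadjusted p under 0.05 were counted in either direction, beside 16.8% of all genes. The counts were 4 of 9 for cholangiocytes (median 0.52), 8 of 10 for stellate cells and fibroblasts, 4 of 12 for macrophages, 1 of 10 for lymphocytes and 6 of 8 for the endothelium. At the adjusted threshold (1.11% of all genes) they were 1 each for cholangiocytes, stellate cells and endothelium, and 0 for macrophages and lymphocytes. The part of these cell types in the values of Btc and Ereg was not tested.

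Ereg, Areg and Btc lie in 1 cluster on mouse chromosome 5 with Epgn, the gene of a further EGFR ligand, which is not in the table used here. Within 250 kb on either side of the span from Epgn to Btc, GENCODE lists 18 genes. Of these, 10 were in the table and 6 could be tested. At an unadjusted p under 0.05, 3 of these 6 were higher in Brap LKO livers (beside 9.23% of all genes), of which Ereg and Btc are the members given above, and 0 passed the adjusted threshold. The one that is not a member was the noncoding gene Gm19619, next to Btc, with a log2 fold change of 0.67 (limma adjusted p = 0.211). Parm1, beyond Btc, had 0.90 (-0.13 to 1.93), and Mthfd2l, on the Epgn side, had -0.02 (-0.45 to 0.40). Gm19619 and Parm1 were chosen after their values were seen.

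**Figure D4:**
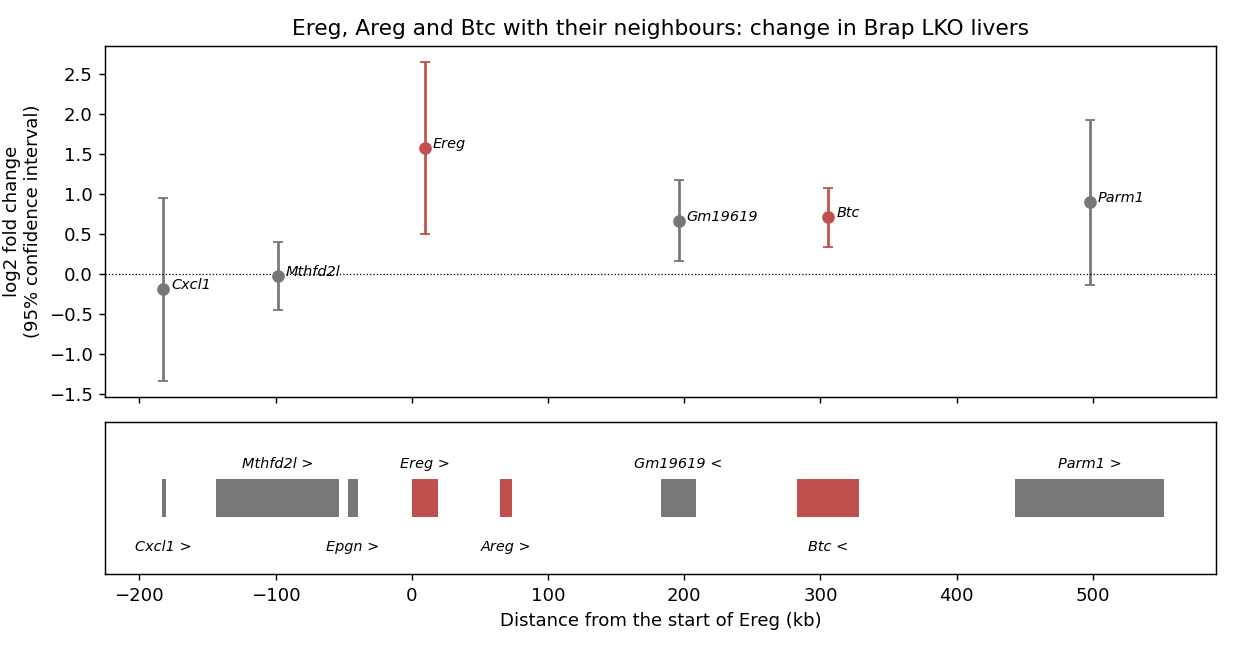
Upper panel, log2 fold change with its 95% confidence interval (limma) for the 6 tested genes around Ereg and Btc, at the middle of each gene; lower panel, the extent of these genes and of Epgn and Areg as distance from the Ereg start in kb (red, members; arrows give the strand). Ereg, Gm19619 and Btc have intervals above 0, whereas those of Cxcl1, Mthfd2l and Parm1 span it.

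The rest of the pathway was followed in 5 lists of 59 genes, of which 56 were in the table and 52 were tested. None passed the adjusted threshold with limma or edgeR (9 and 10 at an unadjusted p under 0.05, beside 15.8% and 15.6% of all genes). DESeq2 called 2, the neuregulin genes Nrg1 (higher) and Nrg4 (lower), beside 4.15% of all genes. With limma 6 of 52 were higher and 3 lower at an unadjusted p under 0.05, with a median log2 fold change of -0.02 against -0.01 for all genes.

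Of the other ERBB ligands, Nrg4, a neuregulin for ERBB4, was abundant and lower in Brap LKO livers. It measured 605, 597, 805 and 620 normalized counts against 999, 1030, 977 and 756. The groups overlapped through Brap LKO 3 and Brap F/F 4 alone, and the log2 fold change was -0.52 (limma adjusted p = 0.104). Nrg1, which binds ERBB3 and ERBB4, was chosen after its values were seen. Nrg1 was higher in every Brap LKO liver, as were 5.48% of all genes tested. Its values were 18.2, 33.1, 15.2 and 27.0 against 10.3, 8.14, 4.20 and 8.83, with a log2 fold change of 1.46 (limma adjusted p = 0.0937). Nrg2 was at 0 in 6 livers.

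Genes of ligand release split in direction, with a median of -0.05. Of 7, 2 were higher and 1 lower at an unadjusted p under 0.05, beside 9.23% and 6.59% of all genes. For the releasing protease gene Adam10 the log2 fold change was 0.17 (adjusted p = 0.288), and Rhbdf1 and Rhbdf2, which carry ADAM17 to the cell surface, had 0.24 (adjusted p = 0.195) and -0.29 (adjusted p = 0.314). Adam17 itself was level, at 618 and 631 mean normalized counts. Rhbdf1 was higher in every Brap LKO liver, as were 5.48% of all genes tested. Among the 12 adaptors only Grb2, which links the receptors to the Ras activator SOS, had an unadjusted p under 0.05 (beside 15.8% of all genes). Grb2 was lower in every Brap LKO liver (1167 to 1225 against 1289 to 1402), as were 4.39% of all genes tested. Its log2 fold change was -0.18 (adjusted p = 0.199). Gab2 had 0.39 (adjusted p = 0.348) and Pik3r1 -0.22 (adjusted p = 0.514).

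Among the genes of receptor inhibition and turnover 1 of 15 had an unadjusted p under 0.05 (Sh3kbp1, higher), beside 15.8% of all genes. The median was -0.02. Errfi1, a feedback inhibitor that binds the EGFR kinase, averaged 50171 ± 4618 normalized counts (SD, n = 4) in Brap LKO and 54101 ± 4860 (SD, n = 4) in Brap F/F livers, with a log2 fold change of -0.11. Cbl and Cblb, ubiquitin ligases for EGFR, had log2 fold changes of 0.21 (adjusted p = 0.317) and -0.18 (adjusted p = 0.595), and the endocytic adaptor Eps15 had 0.17 (adjusted p = 0.541). Hgs was listed at or near 0, and 97.2% of its exon bases are shared with another annotation of the same name, so its value is uncertain.

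Genes known to respond to EGF varied widely within both groups. Of 16 tested, 2 were higher at an unadjusted p under 0.05 (Egr1 and Ier2) and 0 lower, beside 9.23% and 6.59% of all genes. Their median was 0.35. Egr1, an immediate early transcription factor, measured 311, 360, 427 and 204 normalized counts against 91.2, 114, 109 and 412. A single control, Brap F/F 4, lay in the Brap LKO range. The log2 fold change was 1.09 (adjusted p = 0.286), and without that liver it was 1.58 with an adjusted p of 0.0225. The latter fit also called more genes over all (178 higher and 54 lower, against 102 and 16). Egr1 was at 0.69 without Brap F/F 2 and 3 (adjusted p = 0.552). Ccnd1, the gene of cyclin D1, measured 898, 1742, 2009 and 3467 against 2080, 337, 305 and 1894. Its lowest values were again those of Brap F/F 2 and 3, and its log2 fold change of 1.19 (adjusted p = 0.43) was -0.13 without them. Myc, at -0.56 (adjusted p = 0.578), was highest in Brap F/F 3.

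**Figure D5:**
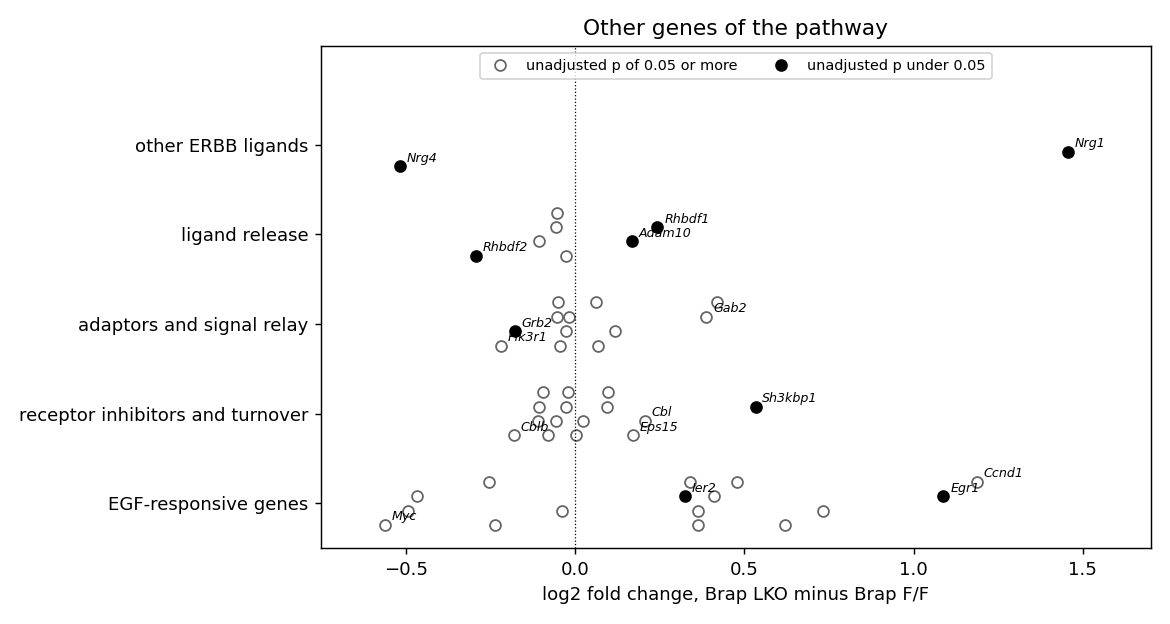
log2 fold change (Brap LKO minus Brap F/F) of the 52 tested genes of the 5 pathway lists, 1 point per gene; filled points had an unadjusted limma p under 0.05 (9 genes), and none passed the adjusted threshold. Ligands and EGF-responsive genes spread from about -0.56 to 1.46, whereas adaptors and turnover genes lie between -0.22 and 0.53.

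By Pearson correlation of log2(normalized count + 1) over the 8 livers among 10132 genes, Egfr was closest to Shisa5 (r = 0.98), Septin11 (0.98) and Ehd4 (0.98). Shisa5 measured 676 and 743 normalized counts in Brap F/F 2 and 3 and 896 to 1027 in the other 6. Erbb3 was closest to Nbr1 (r = 0.97), Cenpa (0.96) and Cenpl (0.96), and Tgfa to Cadm4 (r = 0.99), Ppib (0.98) and Pde9a (0.98), all with Brap F/F 2 and 3 lowest. Erbb4 was closest to Lama1 (r = 0.98), Ppp1cc (0.98) and Pcnx (0.98). The points share libraries and size factors, so these values are given as a description.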

How the data were processed

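Bulk RNA-seq of the left liver lobe was analysed for 4 Brap LKO and 4 Brap F/F mice, grouped by the genotype label. Nothing in the labels ties same-numbered mice of the 2 groups. The authors used the NuGEN Universal Plus mRNA kit, aligned to mm10 with STAR 2.6.0c and divided the reads of each gene by a DESeq2 size factor. How reads were assigned to genes (tool, annotation, strand) is not given in the sources used here. The deposited signal is this normalized count for 24451 genes. Every value (100%, within 0.001 reads) was a whole multiple of the value of 1 read in that library, and the reads behind it were recovered. The authors' second table holds their own DESeq2 fold changes and p-values and was not used. A count of 0 allows up to 3 reads, which covers counting error only, since molecules were not tagged.

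The groups were compared with limma 3.58.1 in R 4.3.3 (lmFit and trended eBayes, no covariates) on log2(normalized count + 1), keeping 15352 genes that averaged 5 or more, at a Benjamini-Hochberg adjusted p of 0.05. The fold change on this scale understates that of low genes. The code was tested on simulated data. edgeR 4.0.16 (quasi-likelihood) and DESeq2 1.42.0 on recovered reads, other pseudocounts, filters and scalings, a replicate block, the animal series and leaving out livers were tried as alternatives. The animal series is no label but a split, made here, of the animal numbers into a lower and a higher part. Exact permutation tests were two-sided. Genes named beyond the 10 members are, by rule, those of each list past the threshold and the 3 with the largest change among those with a mean of at least 100, and the 3 genes most like each such member. Other named genes were chosen after their values were seen, and the members and lists were chosen with earlier results of these data known. Positions, exon lengths and overlaps came from GENCODE for the same build. Sequences came from RefSeq (GRCm38.p6). Tables were made with pandas 2.3.3 and scipy 1.17.1 under Python 3.11.15.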

Additional observations from a re-analysis of the deposited data

Results flagged for a closer look

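Of 46 groups of 4 livers examined (23 genes), 4 held a liver whose gap to the nearest other exceeded Dixon's 95% critical value, where chance gives about 1 in 20 groups. Ereg was at 8.83 normalized counts (9 reads) in Brap F/F 4, against 1.14 to 2.10 in the other 3 controls. Egr1 was at 412 in the same liver, against 91.2 to 114. Nrg4 was at 805 in Brap LKO 3, against 597 to 620 in the other 3 Brap LKO livers. Areg was at 1.02 (1 read) in Brap F/F 2 and at 0 in the other 3 controls. With 3 equal values any other value is flagged, so Areg adds nothing to the count of 4.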

How the results depend on the processing

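Over 20 alternatives Btc and Egfr kept their direction, with log2 fold changes of 0.59 to 0.87 and 0.19 to 1.24, and so did Ereg and Hbegf over the 19 that could test them (0.92 to 2.04 and 0.11 to 0.56). A minimum mean of 20 removed both of these ligands from the test. Btc passed the adjusted threshold with the same total per liver (0.87, adjusted p = 0.036, a scaling that moved the median of all genes to 0.15) and with DESeq2 (0.71), and Ereg without Brap F/F replicate 4, so the members called as higher numbered 1 under each of these 3 and 0 otherwise. Over the pathway lists 1 gene was higher under the same 3 settings (Nrg1, Nrg1 and Egr1) and 1 lower, Nrg4, with DESeq2 and without Brap F/F replicate 4. Erbb4 turned to -0.20 with edgeR and -0.21 with DESeq2. Without Brap F/F replicates 2 and 3, an alternative chosen after seeing the data, Erbb3 turned to -0.11, Tgfa to -0.17 and the Egfr to Erbb2 ratio to -0.58. All genes called as higher numbered 102, and 459 with the same total and 455 with DESeq2. Those called as lower numbered 16, and 9 with a minimum mean of 20, 170 with DESeq2 and 47 without the 2 livers. The cause of these shifts was not tested.

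Leaving out each liver in turn gave 11 to 178 genes higher and 4 to 54 lower, with the most without Brap F/F replicate 4, and 0 to 1 members higher and 0 to 1 pathway genes in each direction. The log2 fold changes then ranged over 0.59 to 0.79 (Btc), 1.31 to 2.04 (Ereg), -0.09 to 0.45 (Erbb2, at -0.085 without Brap F/F replicate 1), -0.03 to 0.28 (Egf, at -0.027 without the same liver) and -0.34 to 0.58 (Erbb4). Erbb4 was below 0 without Brap LKO replicate 1 (-0.13) or 3 (-0.08) and without Brap F/F replicate 1 or 4 (-0.20). Tgfa ranged over -0.05 to 0.13, with -0.016 and -0.046 without Brap F/F replicates 2 and 3 in turn. Egfr (0.63 to 1.24), Erbb3 (0.02 to 0.22) and Hbegf (0.11 to 0.56) stayed above 0, and so did the Egfr to Erbb3 (0.60 to 1.02) and Egfr to Erbb2 (0.18 to 1.12) ratios. The Erbb2 to Erbb3 ratio ranged over -0.20 (without Brap F/F replicate 1) to 0.42.

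With the replicate number as a block, Btc had an adjusted p of 0.129 and Egfr of 0.146, 80 genes were higher and 15 lower, and no call on a member changed. The deviations of same-numbered livers from their group means correlated at -0.32, 0.02, 0.37 and 0.45. Livers of unlike number spanned -0.52 to 0.41. With 4 livers per group these values cannot decide whether the numbers are a pairing. No label gives one, so none was used in the main fit. The animal series as a covariate changed no call on a member. The main fit called 0 members, so neither the covariate nor the block had a call to remove. The lower part of the series held Brap LKO 1 to 3 and Brap F/F 1. The higher part held Brap LKO 4 and Brap F/F 2 to 4. Series and genotype largely coincided, so this fit cannot tell them apart well. With it the log2 fold change was 0.83 for Egfr (0.90 in the main fit), 0.75 for Btc (0.71) and 0.53 for Erbb2 (0.25).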
